A study of Homo sapiens with 13 samples.

Results

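The genes of the epidermal growth factor (EGF) family and its receptors were followed across 5 culture conditions of a human osteoblast line. The group was chosen by name: 10 genes were taken from the 43836 rows of the gene count table because their Ensembl identifiers map to a listed symbol. They comprise 6 ligands (*HBEGF*, *AREG*, *EREG*, *TGFA*, *BTC* and *NRG1*), 3 receptors (*EGFR*, *ERBB2* and *ERBB3*) and 1 inhibitor of the receptor kinase (*ERRFI1*). Of these, 9 passed the filter on low counts and were tested. *BTC*, with 59 reads over all libraries, did not pass and is described by its reads.

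The libraries were poly-A RNA from hFOB 1.19, an immortalized clonal line of human fetal osteoblasts that was used in every condition. Positive controls (PC) were grown with 10% fetal bovine serum (FBS) and negative controls (NC) without serum, both with 0.01% DMSO as vehicle. Serum was withdrawn 24 h before treatment from the serum-free cultures and not from PC. The serum-free cultures of the remaining groups received 1 µg/mL of resveratrol (RES), of peonidin-3-O-glucoside (POG) or of a compound labelled DEG. The labels name delphinidin-3-glucoside as the third compound used but do not join that name to the DEG samples, and the time from treatment to harvest is not given in the sources used here. PC, NC and DEG had 2 libraries each, and RES and POG had 3 each; a further DEG sample was not analysed here. The methods describe triplicate wells for RES and POG, but neither they nor the labels tie a well or a culture to a library, so the tests measure the spread between these libraries, which may be technical. The line is a single clone carrying an immortalizing viral antigen, which limits it as a model of primary bone cells.

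EGF-family ligands are made as precursors anchored in the cell membrane and are released by metalloproteases of the ADAM family, after which they act on the same or on neighbouring cells. *HBEGF*, *AREG*, *EREG*, *TGFA* and *BTC* encode ligands of EGFR, while the product of *NRG1* binds ERBB3 and ERBB4. The receptors signal as pairs: ERBB2 has no known ligand of its own and serves as the preferred partner, ERBB3 has little kinase activity, and ERRFI1 (also called MIG6) binds the EGFR kinase domain and holds it inactive. In bone, EGFR signalling is known to support the growth of osteoblast precursors, and *AREG* is known as a target of parathyroid hormone in osteoblasts.

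Library totals ranged from 38464619 to 51416358 reads. Values are given as CPM, the reads of a gene relative to its library total after scaling by the trimmed mean of M values (TMM), and a difference was called at an edgeR false discovery rate (FDR) under 0.05 over the 17092 genes tested. The osteoblast markers *COL1A1*, *COL1A2* and *SPARC* stood between 1019 and 2869 CPM in each library and *RUNX2* between 44.3 and 51.6 CPM, with *ALPL* between 3.22 and 6.66, *BGLAP* between 0.425 and 2, and *SPP1* between 0.955 and 2.34 CPM, while *SP7* (at most 0.181 CPM) and *IBSP* (at most 0.0224 CPM) were under 1 CPM in all of them. The sum of these 9 markers was 5462 to 5524 CPM in PC, 5263 to 5321 in NC, 4907 to 5035 in RES, 4751 to 4786 in POG and 4763 to 4769 in DEG. Of 5 epithelial markers, 4 were under 1 CPM in every library, and the sum of the list lay between 3.9 and 5.95 CPM. The sum of 3 endothelial markers was 55.1 to 58.3 CPM in PC, 41.6 to 43.5 in NC, 51.8 to 58.4 in RES, 34.5 to 37.1 in POG and 37.3 to 37.8 in DEG. Most of that sum was *TEK*, with *CDH5* under 1 CPM throughout. The sums over 3 leukocyte markers reached at most 1.52 CPM with no read of *CD3E*, those over 3 chondrocyte markers 1.81 CPM and those over 3 adipocyte markers 1.17 CPM with no read of *LEP*. The part of these lists in the results was not tested. In RNA from whole cultures, fewer cells making a transcript and less transcript per cell cannot be told apart.

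Apart from *NRG1* and the ligands of chromosome 4, the members are spread over the genome (hg38): *HBEGF* (ENSG00000113070.7) on chromosome 5 at 140332843 to 140346603, *TGFA* (ENSG00000163235.15) on chromosome 2 at 70447284 to 70554193 and *EGFR* (ENSG00000146648.17) on chromosome 7 at 55019017 to 55211628. *ERBB2* (ENSG00000141736.13) is on chromosome 17 at 39687914 to 39730426, *ERBB3* (ENSG00000065361.14) on chromosome 12 at 56076799 to 56103505 and *ERRFI1* (ENSG00000116285.12) on chromosome 1 at 8004404 to 8026309. All are annotated as protein-coding.

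The ligand genes *EREG* (ENSG00000124882.3), *AREG* (ENSG00000109321.10) and *BTC* (ENSG00000174808.11) lie side by side on chromosome 4 (hg38). *EREG* occupies 74365145 to 74388749 and *AREG* 74445136 to 74455005, both on the plus strand and 56.4 kb apart, and *BTC* follows on the minus strand at 74744759 to 74794523, 289.8 kb further on. Because the neighbours *AREG* and *EREG* changed in opposite directions in each of the 4 comparisons with NC, the 250 bases before the start of each are shown, from RefSeq (GRCh38.p14), for *AREG* at chr4:74444886-74445135 and for *EREG* at chr4:74364895-74365144, both on the plus strand. Capitals mark the cyclic-AMP response element TGACGTCA and the TATA sequence TATAAA, motifs that were chosen after the sequences had been seen.
AREG: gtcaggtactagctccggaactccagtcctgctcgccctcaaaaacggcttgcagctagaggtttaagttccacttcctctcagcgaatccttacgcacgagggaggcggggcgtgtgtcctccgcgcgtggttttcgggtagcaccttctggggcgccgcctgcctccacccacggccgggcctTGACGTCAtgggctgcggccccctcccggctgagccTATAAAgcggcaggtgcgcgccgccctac
EREG: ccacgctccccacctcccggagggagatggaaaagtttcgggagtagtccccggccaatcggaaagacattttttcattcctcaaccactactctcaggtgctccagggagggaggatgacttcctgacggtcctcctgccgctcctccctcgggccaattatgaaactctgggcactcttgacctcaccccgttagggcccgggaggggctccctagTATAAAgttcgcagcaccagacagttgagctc

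The first base of TGACGTCA lay 65 bases before the *AREG* start, and TATAAA began 29 bases before the *AREG* start and 32 bases before that of *EREG*. Both strands were searched in windows from 250 bases before to 50 bases after each start. TGACGTCA was present in 1.85% and TATAAA in 11.5% of 35116 such windows. The windows of both genes held neither the AP-1 letters TGANTCA (7.71% of windows) nor the EGR1 letters GCGNGGGCG (9.43%). A match describes letters and not binding.

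*AREG*, encoding amphiregulin, had its lowest levels with serum and its highest with resveratrol. Its libraries gave 13.1 and 12.4 CPM in PC, 19.6 and 19.8 in NC, 31, 30 and 32.1 in RES, 22.6, 25.8 and 26.7 in POG, and 26.5 in both DEG libraries, from 525 to 1429 reads a library. No PC library reached an NC library, and each library treated with a compound was above both NC libraries. As compared with negative controls, *AREG* was 1.57-fold higher in RES (95% interval 1.43 to 1.73; log2 0.65 ± 0.0658 SE, edgeR FDR = 3.97e-20), 1.27-fold higher in POG (1.16 to 1.4, edgeR FDR = 1.13e-05) and 1.35-fold higher in DEG (1.21 to 1.49, edgeR FDR = 5.46e-07). In PC it fell by 0.62 ± 0.0781 on the log2 scale (edgeR FDR = 5.7e-14). These calls held under all 18 alternatives of test, scaling, filter, dispersion and left-out library.

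*EREG*, encoding epiregulin, was highest with serum and lower with each compound than without. The PC libraries held 15 and 15 CPM, NC 12.4 and 12, RES 9.69, 9.88 and 9.38, POG 10.2, 8.26 and 8.65, and DEG 9.87 and 9.16, from 360 to 742 reads a library. Each compound-treated library lay below both NC libraries, and both PC libraries lay above them. Relative to NC, *EREG* fell by 0.34 ± 0.0869 (SE) on the log2 scale in RES (edgeR FDR = 0.00266), by 0.43 ± 0.0874 in POG (edgeR FDR = 2.79e-05) and by 0.36 ± 0.0973 in DEG (edgeR FDR = 0.00546), and it rose by 0.30 ± 0.0908 in PC (edgeR FDR = 0.00304). Without the first NC library the call was lost in RES (edgeR FDR = 0.0857, range over 18 alternatives 0.00122 to 0.0857) and in DEG (edgeR FDR = 0.0905, range 0.00201 to 0.145). Without the second DEG library the DEG value was -0.30 with an edgeR FDR of 0.145.

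The 2 genes can be set against each other inside a library, where no scaling enters. There were 0.873 and 0.828 *AREG* reads per *EREG* read in PC and 1.58 and 1.65 in NC. Treated cultures gave 3.2, 3.03 and 3.42 in RES, 2.21, 3.13 and 3.09 in POG, and 2.69 and 2.9 in DEG. The ratio was therefore below 1 with serum, between 1 and 2 without it, and above 2 in each library that received a compound. Among the treated libraries the first POG library had the lowest ratio, having both the least *AREG* and the most *EREG*.

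**Figure D1:**
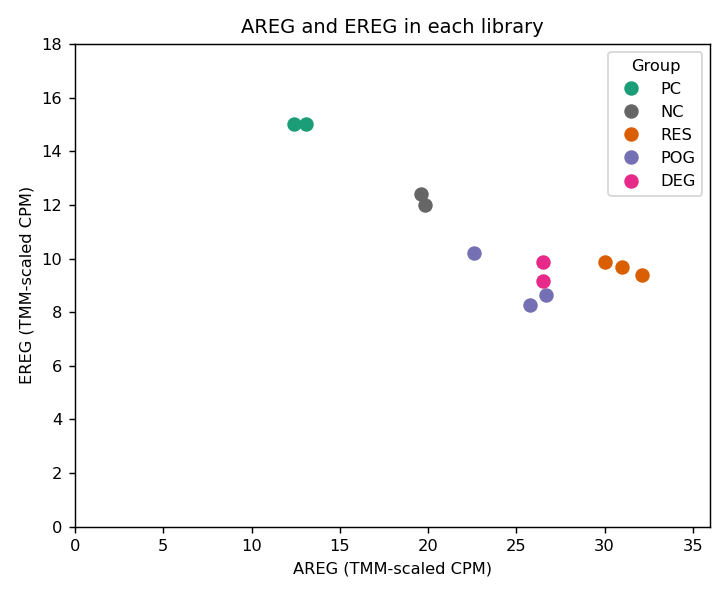
Each point is 1 library, with its *AREG* level on the horizontal axis and its *EREG* level on the vertical axis (both TMM-scaled CPM) and its group in colour. The PC libraries sit at the upper left (*AREG* 12.4 and 13.1 CPM, *EREG* 15 CPM), NC in between, and the 8 compound-treated libraries at the lower right, with *AREG* at or above 22.6 CPM.

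*HBEGF*, the gene of heparin-binding EGF-like growth factor, had the highest per-length level of the 6 ligands in PC and NC. It read 65 and 62.9 CPM in PC, 45.5 and 48.5 in NC, 53.3, 54.9 and 49.9 in RES, 47.5, 45.6 and 46.4 in POG, and 47.2 and 48.2 in DEG. Only PC and RES lay wholly above NC. The rise in PC was 1.36-fold (log2 0.44 ± 0.0508 SE, edgeR FDR = 6.51e-16) and that in RES 1.12-fold (log2 0.16 ± 0.0473, edgeR FDR = 0.0122). POG and DEG gave log2 differences from NC of -0.02 (95% interval -0.11 to 0.08) and 0.02 (-0.09 to 0.13), with edgeR FDR of 0.91 and 0.918. The RES call was lost when the first NC library (log2 0.12, edgeR FDR = 0.325), the first RES library (edgeR FDR = 0.0553) or the second RES library (edgeR FDR = 0.105) was left out, the range over 18 alternatives being 0.00167 to 0.325.

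*NRG1* (ENSG00000157168.18, chromosome 8 at 31639222 to 32855666), which encodes neuregulin ligands of ERBB3 and ERBB4, was highest with serum. Its libraries held 11.8 and 14 CPM in PC, 7.77 and 6.56 in NC, 5.7, 4.87 and 5.56 in RES, 5.51, 5.94 and 7.14 in POG, and 6.12 and 6.13 in DEG. PC did not overlap any other group, RES and DEG lay below NC, and POG overlapped NC. The gene was 1.8-fold higher in PC than in NC (log2 0.85 ± 0.119 SE, edgeR FDR = 4.98e-11) and fell by 0.41 ± 0.12 on the log2 scale in RES (edgeR FDR = 0.00906). The differences in POG (log2 -0.21, 95% interval -0.45 to 0.03, edgeR FDR = 0.268) and DEG (-0.23, -0.50 to 0.04, edgeR FDR = 0.336) did not pass the test. The call in RES was lost without the first NC library (log2 -0.29, edgeR FDR = 0.325) and without the second RES library (log2 -0.35, edgeR FDR = 0.0819), within a range of 0.0022 to 0.325 over 18 alternatives.

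*TGFA*, encoding transforming growth factor alpha, was close to the detection limit, with 21 to 53 reads a library. The PC libraries were unlike each other at 0.607 and 1.26 CPM, and the others ranged from 0.466 to 0.894 CPM. The gene was not called in any of 10 comparisons. Its value in PC against NC was log2 0.71 with a 95% interval of -0.08 to 1.51 (edgeR FDR = 0.127), and it was called only when the first PC library was left out (log2 1.16, edgeR FDR = 0.0162; range over 18 alternatives 0.0162 to 0.928).

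*BTC*, encoding betacellulin, gave 0 and 3 reads in the PC libraries, 8 and 5 in NC, 16, 7 and 5 in RES, 4, 3 and 3 in POG, and 2 and 3 in DEG. Pooled over libraries this was 0.0328 CPM in PC (exact Poisson 95% interval 0.00675 to 0.0957), 0.166 in NC (0.0882 to 0.283), 0.209 in RES (0.139 to 0.302), 0.0737 in POG (0.0354 to 0.136) and 0.0641 in DEG (0.0208 to 0.15). The intervals cover counting error only. The ratio of PC to NC was 0.198 (0.0361 to 0.72) and that of RES to NC 1.26 (0.633 to 2.66), and 16 of the 28 RES reads came from 1 library. When no filter was applied, *BTC* was called in 1 of 10 comparisons, lower in PC than in RES (log2 -2.56, edgeR FDR = 0.0467).

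**Figure D2:**
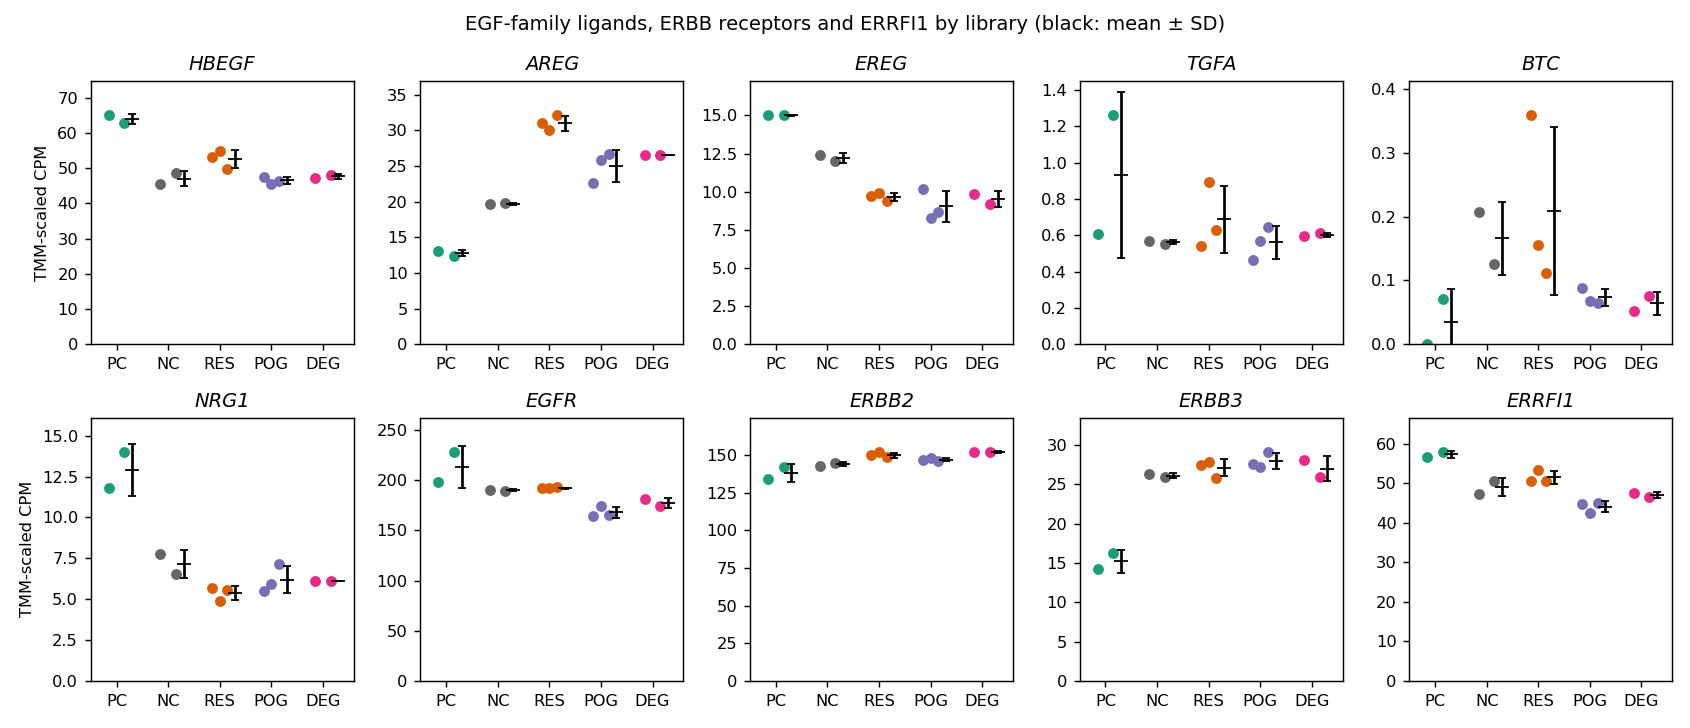
Each panel is 1 gene, with TMM-scaled CPM on the vertical axis from 0 and the 5 groups on the horizontal axis. Coloured points are libraries and black marks the group mean ± SD (n = 2 or 3). *AREG* is lowest in PC (12.8 ± 0.47 CPM) and highest in RES (31 ± 1.04 CPM), *EREG* is highest in PC (15 ± 0.0119 CPM), and *ERBB3* is lower in PC (15.2 ± 1.47 CPM) than in the 4 serum-free groups.

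*EGFR*, the receptor of the ligands above other than *NRG1*, read 198 and 228 CPM in PC, 190 and 189 in NC, 192, 192 and 193 in RES, 164, 174 and 165 in POG, and 181 and 174 in DEG. The POG and DEG libraries were all below NC, and RES stayed within a few CPM of it. In POG the gene fell by 0.18 ± 0.0403 (SE) on the log2 scale relative to NC (edgeR FDR = 0.000989), which held in all 18 alternatives. RES differed from NC by 0.02 with a 95% interval of -0.06 to 0.10 (edgeR FDR = 0.865), and DEG by -0.10, with an interval of -0.19 to -0.0057 (edgeR FDR = 0.23). With dispersions from the groups compared the DEG value was called (edgeR FDR = 0.0126), as it was without either PC library (0.0117 and 0.0118), in a range of 0.0117 to 0.678. The rise in PC of 0.17 ± 0.0439 (edgeR FDR = 0.00173) dropped to 0.07 without the second PC library (edgeR FDR = 0.0891, the highest over 18 alternatives) and was lost with dispersions from the groups compared (edgeR FDR = 0.0626).

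*ERBB2*, the receptor without a ligand of its own, varied least among the tested members. Its libraries held 134 and 142 CPM in PC, 143 and 145 in NC, 149 to 152 in RES, 146 to 148 in POG and 152 in DEG. No comparison with NC was called, the values running from log2 -0.06 in PC (95% interval -0.13 to 0.01, edgeR FDR = 0.24) to 0.08 in DEG (0.0060 to 0.16, edgeR FDR = 0.227). Calls appeared in PC with plain library totals (edgeR FDR = 0.0298) or without its second library (0.0149), in a range of 0.0149 to 0.882. In DEG they appeared with dispersions from the groups compared (edgeR FDR = 0.0465) or without either PC library (0.0403 and 0.0404), in a range of 0.0403 to 0.566. *ERBB2* shares 571 bases, or 5.53% of its exons, with *MIEN1* on the opposite strand, and the strand setting of the counting is not given in the sources used here. *MIEN1* was 0.29 higher on the log2 scale in PC than in NC (edgeR FDR = 2.59e-06).

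The reads of *EGFR* per read of *ERBB2*, again free of scaling, were 1.48 and 1.6 in PC, 1.33 and 1.3 in NC, and 1.26 to 1.29 in RES. They were 1.11 to 1.17 in POG and 1.14 and 1.19 in DEG. POG and DEG thus lay below the other 3 groups in this ratio, and PC above them.

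*ERBB3*, the neuregulin receptor with little kinase activity, separated serum from the serum-free groups. PC held 14.2 and 16.3 CPM, NC 26.3 and 25.9, RES 27.5, 27.8 and 25.8, POG 27.6, 27.2 and 29.1, and DEG 28.1 and 25.9. No PC library came near the lowest serum-free library. The fall in PC relative to NC was 0.78 ± 0.0722 (SE) on the log2 scale (edgeR FDR = 1.53e-25), and the gene was not called with any of the 3 compounds. The log2 differences from NC were 0.05 in RES (95% interval -0.08 to 0.18, edgeR FDR = 0.73), 0.10 in POG (-0.03 to 0.22, edgeR FDR = 0.339) and 0.05 in DEG (-0.09 to 0.19, edgeR FDR = 0.792). Thus *NRG1* and *ERBB3*, a ligand and its receptor, went opposite ways with serum.

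*ERRFI1*, the kinase inhibitor, read 56.6 and 57.9 CPM in PC, 47.4 and 50.7 in NC, 50.5, 53.4 and 50.7 in RES, 44.8, 42.5 and 45 in POG, and 47.6 and 46.5 in DEG. POG lay below NC and PC above it, whereas RES and DEG overlapped NC. It rose by 0.22 ± 0.0498 (SE) on the log2 scale in PC (edgeR FDR = 8.04e-05) and fell by 0.15 ± 0.0464 in POG (edgeR FDR = 0.0158). The POG call was lost with no filter (edgeR FDR = 0.0519), without the second NC library (log2 -0.10, edgeR FDR = 0.369) and without the second POG library (log2 -0.13, edgeR FDR = 0.108), in a range of 0.0041 to 0.369. A long noncoding RNA on the opposite strand (ENSG00000284747, with no row in the table) overlaps 3.71% of its exons.

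The comparisons with NC share its libraries, so the counts that follow do not stand apart from each other. With serum, 7 of 9 tested members were called (42.4% of all genes), 5 higher (21.4%) and 2 lower (20.9%), and all 9 had libraries that did not overlap those of NC (65.6% of all genes). RES gave 4 called members (11.2% of all genes), with *AREG* and *HBEGF* higher (4.94%) and *EREG* and *NRG1* lower (6.21%). POG gave 4 (14.5% of all genes), with *AREG* higher (5.93%) and *EREG*, *EGFR* and *ERRFI1* lower (8.57%). DEG gave 2 (9.63% of all genes), *AREG* higher (3.52%) and *EREG* lower (6.11%). The members whose libraries did not overlap those of NC numbered 6 in RES, 6 in POG and 6 in DEG, against 40.9%, 44.1% and 51.8% of all genes. The median absolute log2 change over the tested members was 0.44 in PC (0.21 over all genes), 0.16 in RES (0.098), 0.15 in POG (0.11) and 0.097 in DEG (0.1), so that DEG as a whole did not stand above the background.

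**Figure D3:**
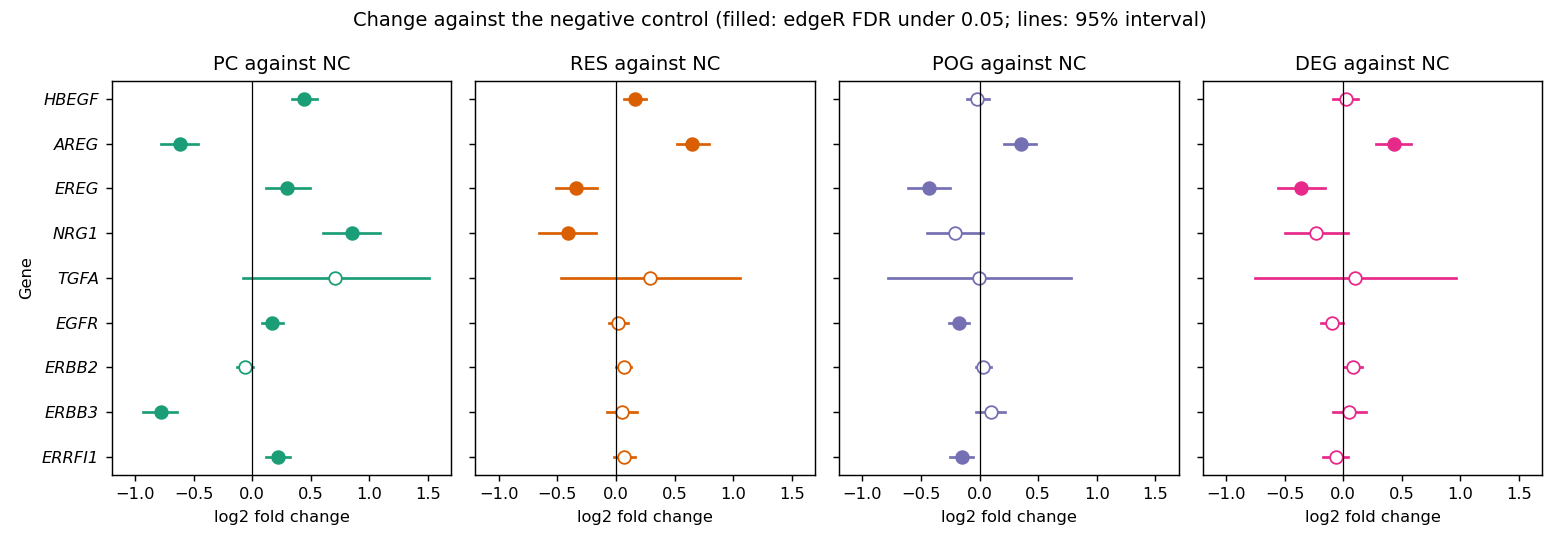
Log2 fold change of the 9 tested members (rows) against NC, in 1 panel for each other group. Points are estimates, lines are 95% intervals from the quasi-likelihood fit, and filled points passed an edgeR FDR of 0.05. *AREG* is at -0.62 with serum and between 0.35 and 0.65 with the compounds, and *EREG* is at 0.30 with serum and between -0.43 and -0.34 with the compounds.

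The compounds were given at the same dose by mass (1 µg/mL) and were compared with each other. Molar doses were not given, so effects of the compound and of its molar dose cannot be told apart. Between POG and RES, 4 of 9 members were called (27.9% of all genes), each lower in POG (14.1%). *AREG* differed by -0.31 ± 0.0557 (SE) on the log2 scale (edgeR FDR = 9.21e-07), *HBEGF* by -0.18 ± 0.0416 (edgeR FDR = 0.000273), *EGFR* by -0.20 ± 0.036 (edgeR FDR = 6.56e-06) and *ERRFI1* by -0.22 ± 0.0409 (edgeR FDR = 2.23e-06). These held in all 18 alternatives, and the libraries of the 2 groups did not overlap for any of the 4 or for *ERBB2* (5 of 9 members, 42.1% of all genes). *EREG* was not called, at -0.10 with an interval of -0.26 to 0.07 (edgeR FDR = 0.418), nor was *NRG1*, at 0.21 with an interval of -0.01 to 0.43 (edgeR FDR = 0.158). For *BTC*, the ratio of POG to RES in pooled reads was 0.353 (counting interval 0.153 to 0.748).

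Between DEG and RES the same 4 members were called (21.2% of all genes), again each lower in DEG (10.8%). The log2 differences were -0.22 for *AREG* (edgeR FDR = 0.00428), -0.14 for *HBEGF* (edgeR FDR = 0.0193), -0.12 for *EGFR* (edgeR FDR = 0.041) and -0.13 for *ERRFI1* (edgeR FDR = 0.0327). These rested on few libraries: none of the 4 was called when either DEG library was left out (edgeR FDR for *AREG* 0.0631 and 0.0601, for *HBEGF* 0.195 and 0.0852, for *EGFR* 0.0853 and 0.38, for *ERRFI1* 0.109 and 0.252). Over 18 alternatives the FDR reached 0.0631 for *AREG*, 0.195 for *HBEGF*, 0.38 for *EGFR* and 0.252 for *ERRFI1*, from lowest values of 0.00036, 0.00448, 0.00011 and 0.0119, with no change of sign. The call of *HBEGF* was also lost without the first or second RES library (edgeR FDR = 0.068 and 0.133), that of *ERRFI1* without the second RES library (edgeR FDR = 0.165), with no filter (0.0652) and with DESeq2 (0.0574), and that of *EGFR* with DESeq2 (0.0574), without any 1 RES library (edgeR FDR = 0.0918 to 0.105), and without either NC library or replicates 1 or 3 of POG (edgeR FDR = 0.0539 to 0.0564). The ratio of DEG to RES in *BTC* reads was 0.306 (0.0924 to 0.804).

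Between DEG and POG, 0 of 9 members were called by edgeR (1.05% of all genes), 0 had an unadjusted p under 0.05 (lowest p = 0.0611, edgeR exact test), and both the quasi-likelihood test and DESeq2 called 0. The intervals of the DEG minus POG difference were -0.05 to 0.21 for *AREG*, -0.11 to 0.26 for *EREG*, -0.06 to 0.13 for *HBEGF*, -0.0021 to 0.16 for *EGFR* and -0.0043 to 0.19 for *ERRFI1* on the log2 scale. With dispersions taken from the 2 groups alone *EGFR* was called (log2 0.08, edgeR FDR = 0.0296, range 0.0296 to 0.931 over 18 alternatives).

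Set directly against the compounds, serum gave 8 of 9 called members in each of 3 comparisons (45.7%, 47.9% and 43.4% of all genes against RES, POG and DEG). *AREG* was lower in PC, with log2 differences of -1.28 from RES (edgeR FDR = 4.35e-76), -0.97 from POG (edgeR FDR = 2.26e-42) and -1.05 from DEG (edgeR FDR = 1.11e-41). *NRG1* was higher by 1.26, 1.05 and 1.07, and *ERBB3* was lower, with differences of -0.83, -0.88 and -0.83. Adding a compound to serum-free cells thus left *AREG* further from its level with serum than NC was, and the same held for *EREG*, with values of 0.64, 0.73 and 0.66 in PC against RES, POG and DEG as compared with 0.30 against NC. *ERBB2* was lower in PC, with differences of -0.13, -0.09 and -0.14 (edgeR FDR = 0.00179, 0.0242 and 0.00163). These last calls were lost without the first PC library against RES (edgeR FDR = 0.0611) and POG (0.292), without any 1 POG library against POG (edgeR FDR = 0.0509 to 0.0746), and with dispersions from the groups compared against POG (0.108) and DEG (0.0603). *EGFR* against RES was lost with plain library totals (edgeR FDR = 0.145) and without the second PC library (0.214), and *ERRFI1* against RES with plain library totals (0.137). *TGFA* was called without the first PC library against POG (edgeR FDR = 0.00695) and DEG (0.0273).

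Ordered by group mean, *AREG* ran RES, DEG, POG, NC and PC, in which DEG and POG did not differ beyond their spread and the other neighbours did. *EREG* ran PC, NC, RES, DEG and POG, the last 3 not being distinguished. *HBEGF* ran PC, RES, DEG, NC and POG, the last 3 again not distinguished. *NRG1* and *ERBB3* each had a single step between neighbours that passed the test, PC above NC for *NRG1* and NC above PC for *ERBB3*. *EGFR* and *ERRFI1* likewise had a single such step, PC above RES, and *ERBB2* and *TGFA* had none. The steps of *BTC* were not tested.

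Levels of different genes were compared per kb of the Ensembl canonical transcript. In NC, *ERBB2* stood at 31.5 CPM per kb, *HBEGF* at 19.9, *EGFR* at 19.1, *AREG* at 16 and *ERRFI1* at 15.8. *ERBB3* followed at 4.66, *EREG* at 2.64, *NRG1* at 0.598, *TGFA* at 0.136 and *BTC* at 0.0626. Among the ligands, *HBEGF* and *AREG* were therefore several times the level of the others. *HBEGF* exceeded *AREG* in PC (27.1 ± 0.62 and 10.4 ± 0.381 CPM per kb) and NC, and *AREG* exceeded *HBEGF* in RES (25.1 ± 0.845 and 22.4 ± 1.09). With all annotated exons as the length these means were 21.4 and 7.78 in PC and 18.9 (*AREG*) and 17.6 (*HBEGF*) in RES. In POG the order depended on the length used (*AREG* 20.3 and *HBEGF* 19.7 with the canonical transcript, 15.2 and 15.6 with all exons). For DEG, *AREG* was slightly above *HBEGF* with both lengths (21.5 and 20.2 with the canonical transcript, 16.2 and 15.9 with all exons).

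**Figure D4:**
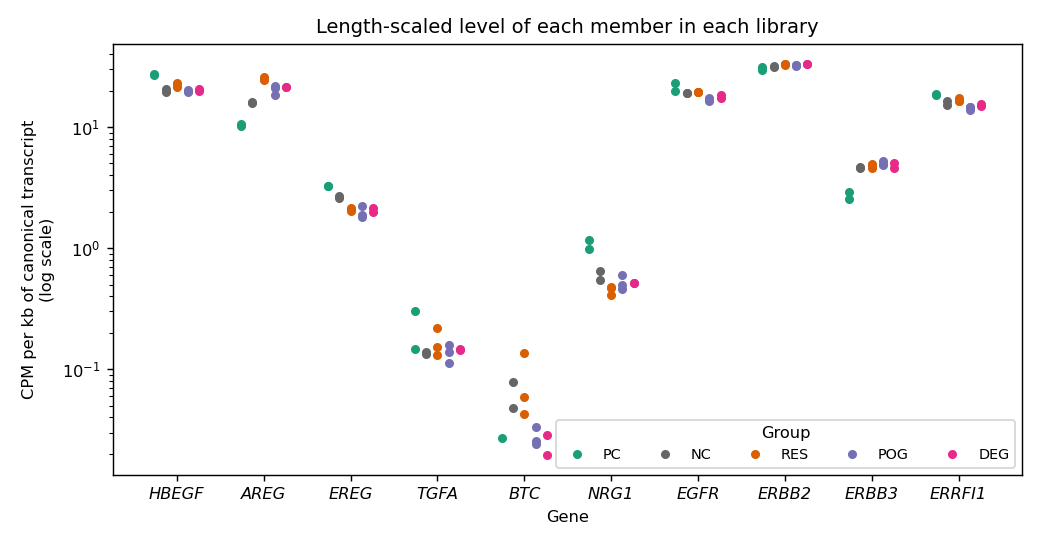
Each point is 1 library, with TMM-scaled CPM per kb of canonical transcript on a log vertical axis and the 10 genes on the horizontal axis, groups in colour. *ERBB2* is near 31.5 CPM per kb, *EREG* near 2.64 and *BTC* near 0.0626 in NC, and the PC library without a *BTC* read is not drawn.

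For the 3 members with the widest range of group means, the genes closest in pattern were found as those with the smallest root-mean-square difference of centred log2 CPM over the 12 libraries, among 13405 genes. For *AREG* they were *PCDHGA9* (0.139), *KCNT2* (0.15) and *PDE4C* (0.154), where *AREG* itself had a root-mean-square of 0.433. *KCNT2* went from 3.29 CPM in PC and 4.97 in NC to 7.66 in RES, and *PCDHGA9* shares exons within its gene cluster, so its counts are uncertain. For *NRG1* they were *MYC* (0.145), *ABI3BP* (0.151) and *FJX1* (0.154) against 0.437. *MYC* averaged 94 CPM in PC and 46.6 in NC. For *ERBB3* they were *CFAP91* (0.0535), *LPIN1* (0.0657) and *TP53INP1* (0.0718) against 0.318. *LPIN1* averaged 40 CPM in PC and 71.9 in NC. These are descriptions over libraries that share their groups.

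Other genes of the ERBB pathway were taken from lists of 63 genes, of which 60 were tested; *NRG3* (4 reads in all), *NRG4* (15 reads) and *SH3GL2* (18 reads) were below the filter. With serum 15 were higher and 24 lower than in NC, together 65% of those tested against 42.4% of all genes. RES had 2 higher and 11 lower (21.7% against 11.2%), POG 2 and 15 (28.3% against 14.5%) and DEG 1 and 11 (20% against 9.63%). The listed genes and all genes were not matched for read level, on which the power to call a change depends. The medians of the log2 changes over the lists were -0.056, -0.025, -0.039 and -0.0095, beside -0.0058, 0.0012, 0.0024 and 0.00085 over all genes. In RES the count fell from 13 to 8 with plain library totals, to 8 with no filter and to 6 without the second NC library.

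Of the other ligands, *EPGN* (epigen) had 25 and 24 reads in PC and 3 and 1 in NC, a ratio of 10.5 in pooled CPM (counting interval 3.85 to 40.1, edgeR FDR = 4.01e-05). *NRG2* fell by 0.70 in PC (edgeR FDR = 0.00617, but 0.0762 without the first NC library). *EGF* itself was at 0.28 ± 0.0668 CPM in NC, 0.597 ± 0.0553 in RES and 0.579 ± 0.199 in POG. Neither difference from NC passed (log2 1.08, edgeR FDR = 0.0844 in RES, and log2 1.04, edgeR FDR = 0.0784 in POG). PC and DEG were not called either (log2 0.07 and 0.35). The fourth receptor, *ERBB4*, was under 1 CPM and was not called against NC.

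Among 8 genes listed under ligand release, 1 was higher and 5 lower in PC, 2 and 2 in RES, 0 and 5 in POG, and 0 and 2 in DEG. The list is mixed in role and includes *CD9*, whose product does not itself release ligands. Over all genes the higher and lower shares were 21.4% and 20.9% in PC, 4.94% and 6.21% in RES, 5.93% and 8.57% in POG, and 3.52% and 6.11% in DEG. *ADAM17*, the main sheddase of AREG and HBEGF precursors, fell by 0.19 ± 0.0413 on the log2 scale in POG (edgeR FDR = 0.000291) and was not called in RES (log2 -0.00, edgeR FDR = 0.998). *ADAM12* was lower than in NC in RES, POG and DEG (log2 -0.33, -0.31 and -0.33, edgeR FDR = 2.83e-08, 8.92e-08 and 1.16e-06). In PC it was higher (log2 0.27, edgeR FDR = 7.06e-06). *RHBDF2*, whose product carries ADAM17 to the cell surface, rose in RES by 0.19 ± 0.0349 (edgeR FDR = 3.23e-05), as did *CD9*, a tetraspanin that associates with the HBEGF precursor, by 0.22 ± 0.0412 (edgeR FDR = 1.59e-05). The related *RHBDF1* fell by 0.40 in PC (edgeR FDR = 1.85e-19). It also counts among the genes lower in RES, POG and DEG, where it was called in 13, 8 and 16 of 18 alternatives. The POG call (log2 -0.11, edgeR FDR = 0.0415) reached an FDR of 0.466 without the second NC library.

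Of 15 genes listed under receptor restraint, 3 were higher and 8 lower in PC, and 0 were higher and 3, 5 and 4 lower in RES, POG and DEG. The list is mixed in role and includes *UBASH3B*, which is not a plain restraint. That gene was called lower in PC, RES, POG and DEG (log2 -0.27, -0.12, -0.14 and -0.19). The called shares were 73.3%, 20%, 33.3% and 26.7%, beside 42.4%, 11.2%, 14.5% and 9.63% of all genes. *LRIG1*, encoding a membrane protein that promotes loss of ERBB receptors, went from 391 ± 10.8 CPM in NC to 301 ± 13.1 in PC (edgeR FDR = 2.46e-22), 341 ± 3.51 in RES (edgeR FDR = 5.63e-07), 343 ± 2.88 in POG (edgeR FDR = 1.19e-06) and 358 ± 2.43 in DEG (edgeR FDR = 0.0122). The DEG call was lost without the second NC library (edgeR FDR = 0.271) and without either DEG library (0.0944 and 0.151). The Sprouty genes *SPRY1*, *SPRY2* and *SPRY4* fell in PC by 1.30, 0.14 and 0.46 (edgeR FDR = 1.13e-12, 0.0152 and 1.61e-27). The *SPRY2* call in PC held in 15 of 18 alternatives. *SPRY2* also fell by 0.27 in POG (edgeR FDR = 6.58e-07) and by 0.22 in DEG (edgeR FDR = 0.00117). Its DEG call was lost without the first NC library (log2 -0.191) and without the first DEG library (log2 -0.182). Of 7 tested trafficking genes 42.9%, 0%, 14.3% and 14.3% were called in PC, RES, POG and DEG, and of 17 signal relay genes 52.9%, 0%, 5.88% and 0%, beside 42.4%, 11.2%, 14.5% and 9.63% of all genes. The trafficking share in PC was thus at the background, and the relay shares with the compounds were below it.

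The 9 response genes, which growth factor signals are known to induce, moved in both directions in PC, POG and DEG. In RES all 9 had log2 values below 0, from -0.23 for *EGR1* to -0.06 for *FOSL1*. Those called were 4 higher and 4 lower in PC, 0 and 6 in RES, and 1 and 4 in both POG and DEG. The called shares were 88.9%, 66.7%, 55.6% and 55.6% beside the same background. *EGR1*, an immediate early transcription factor, stood at 95.8 ± 1.39 CPM in NC and rose to 157 ± 3.46 in POG (log2 0.71, edgeR FDR = 4.23e-64) and 128 ± 6.98 in DEG (log2 0.42, edgeR FDR = 2.48e-18). It fell by 0.23 in RES (edgeR FDR = 4.48e-06) and by 0.14 in PC (edgeR FDR = 0.00708, called in 16 of 18 alternatives). *EGR1* was also the pathway gene that separated DEG from POG, by log2 -0.29 (edgeR FDR = 1.62e-09). *FOSL1*, encoding an AP-1 subunit, was 389 ± 22.1 CPM in PC and 143 ± 1.43 in NC (log2 1.45, edgeR FDR = 2.98e-258) and was not called with any compound. The phosphatase gene *DUSP4* was 42.8 ± 0.016 CPM in NC and fell by 0.43 in POG (edgeR FDR = 7.78e-15) and by 0.42 in DEG (edgeR FDR = 3.33e-11). It also fell by 0.16 in RES (edgeR FDR = 0.0262), a call that held in 12 of 18 alternatives.

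**Figure D5:**
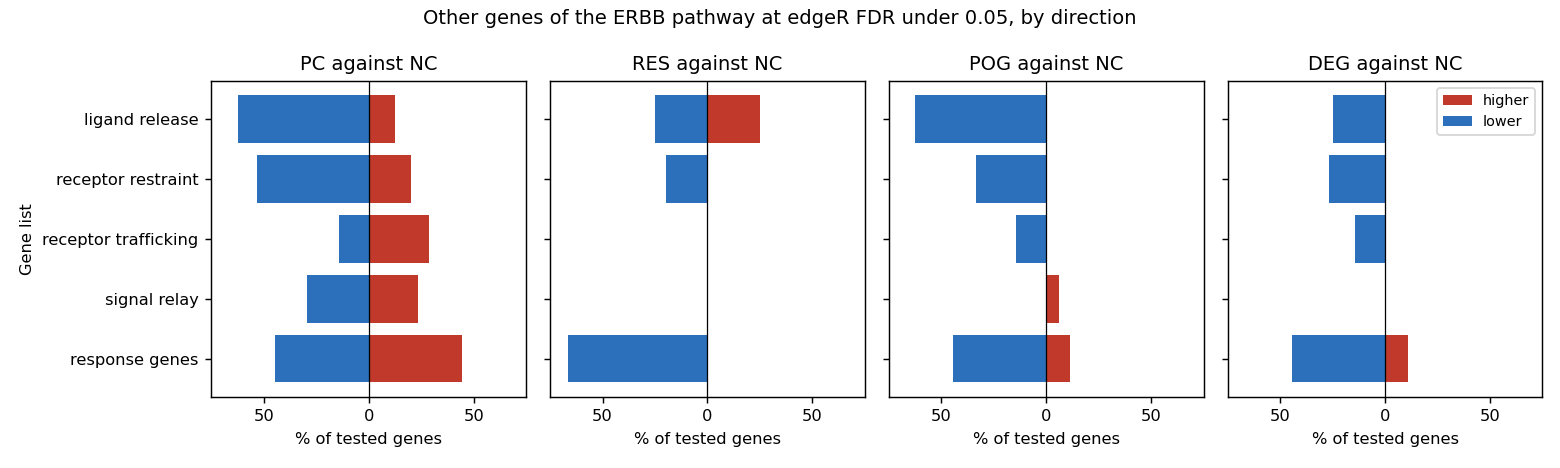
For each list of pathway genes (rows) and each group against NC (panels), bars give the percentage of tested genes called higher (red, to the right) or lower (blue, to the left) at an edgeR FDR under 0.05. Bars to the left are longer than those to the right in each panel for the receptor restraint list, which is mixed in role. Response genes called in RES are all lower (66.7%), among them *DUSP4*, whose call held in 12 of 18 alternatives.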

How the data were processed

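Poly-A RNA of hFOB 1.19 cells was sequenced in paired reads. The authors aligned reads to hg38 with STAR and counted them per Ensembl gene with featureCounts; the deposited values are raw counts for 12 libraries. The versions, and the strand setting of the counting, are not given in the sources used here. Of 13 labelled samples, a DEG sample had no column among those used and was not analysed here.

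Counts were analysed in R 4.3.3 with edgeR 4.0.16. Genes were filtered with filterByExpr (minimum count 10), leaving 17092 genes, and scaled by TMM. Dispersions came from all 12 libraries (common biological coefficient of variation 3.21%). The exact test, as in the study's methods, was adjusted by Benjamini and Hochberg over all genes tested. Standard errors and 95% intervals came from the quasi-likelihood fit. Scripts were tested on simulated data. Library totals of 38464619 to 51416358 reads set the counting precision, and intervals on reads cover counting error only. Alternatives were the quasi-likelihood test, DESeq2 1.42.0, DESeq2 size factors, plain totals, no filter, dispersions from the groups compared, and leaving out each library; ranges over alternatives include the DESeq2 adjusted p.

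All 10 members are named. Other pathway genes are counted in full from fixed lists, with examples named from them. The members, lists and tests were chosen with earlier results of these data known. Gene symbols and lengths came from GENCODE v44, and promoter windows from RefSeq (GRCh38.p14), found for 8 members.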

Additional observations from a re-analysis of the deposited data

How the results depend on the processing

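Across 90 member and comparison values, 1620 alternative values were computed: 1564 stayed on the same side of the threshold, 44 lost the call and 12 gained it. The sign changed in 21 alternative values of 11 uncalled results, mostly of *TGFA* and *ERBB3*, and in 0 of a called result. The number of members called in DEG against NC rose from 2 to 4 with dispersions from the groups compared, the number in DEG against RES fell from 4 to 2 with DESeq2, and the number in DEG against POG went from 0 to 1 with dispersions from the groups compared; the cause was not tested. With each library left out in turn, the called members numbered 7 to 8 in PC against NC, 1 to 4 in RES against NC (1 without the first NC library, 2 without the second RES library), 3 to 4 in POG against NC, 1 to 4 in DEG against NC (1 without the first NC or second DEG library, 4 without either PC library) and 4 to 4 in POG against RES. They numbered 0 to 4 in DEG against RES (0 without either DEG library, 1 without the second RES library, 2 without the first), 0 to 0 in DEG against POG, 7 to 8 in PC against RES and against POG, and 8 to 9 in PC against DEG. With 1 library left in a group, that library was assumed to vary like the other groups. No paired analysis was possible because the labels carry no replicate numbers. Counts of pathway genes called against NC ran from 31 to 47 in PC, 6 to 17 in RES, 12 to 24 in POG and 10 to 16 in DEG. *TGFA* and *BTC* had too few reads to show a moderate change.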

Other observations

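Among the other ERBB pathway genes, 23 of the 60 tested were called between POG and RES (5 higher, 18 lower in POG; 38.3% against 27.9% of all genes) and 16 between DEG and RES (5 higher, 11 lower in DEG; 26.7% against 21.2%). The neuregulin gene *NRG2* gave 3.86, 3.89 and 4.17 CPM in RES, 1.69, 3.22 and 1.79 in POG, and 2.14 and 1.91 in DEG. It was lower than in RES, with log2 differences of -0.84 in POG (edgeR FDR = 1.43e-05) and -0.97 in DEG (edgeR FDR = 2.92e-05), with the second POG library well above the other POG libraries. *FOS* was higher than in RES by 0.40 in POG (edgeR FDR = 6.15e-06) and by 0.40 in DEG (edgeR FDR = 0.000213), and *EGR1* by 0.94 (edgeR FDR = 3.66e-143) and 0.65 (edgeR FDR = 1.3e-53). *RHBDF2*, concerned with the release of EGFR ligands, and *CD9*, whose product associates with the HBEGF precursor, were lower than in RES. Their differences were -0.20 and -0.27 in POG and -0.27 and -0.23 in DEG (edgeR FDR of at most 2.71e-06). *SH3KBP1*, encoding an adaptor of receptor endocytosis, was 0.29 higher in PC than in NC (edgeR FDR = 5.84e-09) and lower than in NC, at -0.24 in POG (edgeR FDR = 2.09e-06) and -0.28 in DEG (edgeR FDR = 1.17e-06).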
